A study of Mus musculus with 10 samples.

Results

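Retinoic acid is made from vitamin A, bound inside cells and broken down by a small set of proteins, and the transcripts of 8 of their genes were followed here in mouse jejunum. The members were chosen by name. They were the retinaldehyde dehydrogenases Aldh1a1, Aldh1a2 and Aldh1a3, the retinoic acid hydroxylases Cyp26a1, Cyp26b1 and Cyp26c1, and the cellular retinoic acid binding proteins Crabp1 and Crabp2. All 8 were found among the 55414 gene identifiers of the count files, and 4 of the 8 had enough counts for the test across genes. RNA was taken from the jejunum, the middle stretch of the small intestine, of male C57BL/6J mice that were homozygous for a floxed Retsat gene (RetSat flox/flox). The 5 control libraries came from mice negative for villin-Cre-ERT2, and the 5 RetSat ko libraries from mice positive for it. Both groups were given intraperitoneal tamoxifen on 5 days and were then fed a high-fat diet (60 kcal% from fat) for 14 weeks. The villin promoter drives the recombinase in the intestinal epithelium, so cells of the wall outside the epithelium are not its target, and presence of the recombinase and loss of Retsat cannot be told apart. The ages of the animals are not given in the sources used here.

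Retinol is oxidised reversibly to retinaldehyde, and the Aldh1a enzymes then oxidise retinaldehyde irreversibly to retinoic acid, the ligand of the nuclear receptors RAR. The Cyp26 enzymes hydroxylate retinoic acid and thereby end its action, and the Crabp proteins carry it within the cell. In the intestine retinoic acid is known for its part in lymphocyte homing and in the supply of vitamin A derived signals by epithelium, stroma and dendritic cells.

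Cyp26a1 is a textbook direct target of RAR, and the DNA in front of its start is shown because it was the single member window that held a retinoic acid response element by letter match; the window of its relative Cyp26b1 is shown for contrast. Each sequence is the 250 bases before the annotated start in RefSeq on GRCm38.p6, an older build than the GRCm39 of the counts. The Cyp26a1 window is chr19:37697558-37697807 on the plus strand, and the Cyp26b1 window is chr6:84593811-84594060 on the minus strand. Capitals mark the pair of repeated hexamers.
Cyp26a1: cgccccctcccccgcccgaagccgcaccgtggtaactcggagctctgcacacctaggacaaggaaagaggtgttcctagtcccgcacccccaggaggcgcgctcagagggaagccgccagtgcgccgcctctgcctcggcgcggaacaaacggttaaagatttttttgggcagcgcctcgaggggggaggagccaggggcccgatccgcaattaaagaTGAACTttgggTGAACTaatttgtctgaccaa
Cyp26b1: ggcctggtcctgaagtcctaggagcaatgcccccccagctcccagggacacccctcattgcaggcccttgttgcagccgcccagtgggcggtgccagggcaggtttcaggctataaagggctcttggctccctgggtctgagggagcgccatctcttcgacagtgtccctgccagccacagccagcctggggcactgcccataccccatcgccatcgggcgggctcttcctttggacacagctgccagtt
The hexamers searched were AGGTCA, the classical receptor site, with its variant AGTTCA, and GGGTCA with the corresponding variant GGTTCA. Pairs had to run in the same direction, on either strand, with a spacer of 5 or 2 bases, and any hexamer could pair with any other. In Cyp26a1 the match lay on the reverse strand with a spacer of 5 bases and covered the bases from 32 to 16 before the start. Of all 32851 RefSeq windows of this length, 29 (0.088%) held a match with a spacer of 5 and 57 (0.174%) one with a spacer of 2. The table had windows for 6 of the 8 members (a pair for Aldh1a1), and those of Aldh1a1, Aldh1a2, Cyp26b1, Cyp26c1 and Crabp1 held neither spacing. Aldh1a3 and Crabp2 had no entry.

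The libraries held 102844680 to 128730695 counts each. Retsat, the targeted gene, ranged from 340 to 576 CPM (counts per 1000000 counts of the scaled library) in control and from 15.4 to 33.4 CPM in RetSat ko, with no overlap. Some libraries stood apart in the transcripts of other tissues or layers. The summed level of 10 pancreatic acinar markers was 7.73 to 239 CPM in control and 8.11 to 2649.5 CPM in RetSat ko, and the 7 smooth muscle markers summed to 180 CPM in control 3 and to 454 to 820 CPM elsewhere. The 6 hepatocyte markers summed to 127 CPM in RetSat ko 5 and to 5.83 to 15.2 CPM elsewhere. The absorptive enterocyte markers of a jejunum were present in every library and summed to 57548 ± 9657 CPM (control) and 47517 ± 9867 CPM (RetSat ko; ± SD, n = 5 each, two-sided exact permutation p = 0.135). The 12 crypt and cell cycle markers summed to 842 ± 95 and 1013 ± 147 CPM (p = 0.0635 in the same exact test), and the 8 Paneth cell markers to 1845 ± 1025 and 3167 ± 1193 CPM (exact p = 0.0873). The fitted change was positive for 12 of 12 crypt markers (median log2 fold change 0.30) and 8 of 8 Paneth markers (median 0.83) and negative for 12 of 12 enterocyte markers (median -0.38), with 0 past the threshold in edgeR. In bulk tissue a smaller number of cells of one type and less RNA per cell cannot be told apart. Whether each library is a separate animal is not spelled out in the labels, so the p-values speak to the spread among the libraries only.

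Synthesis dominated the transcripts of the pathway. On the scale of RPKM (CPM per kilobase of exon), which allows levels of different genes to be compared, Aldh1a1 reached 166 ± 70.1 RPKM in control (SD, n = 5), higher than 98.1% of the tested genes. Aldh1a3 followed at 8.0 ± 1.06 RPKM and Aldh1a2 at 2.47 ± 0.724 RPKM. Among the genes that do not make retinoic acid, Cyp26b1 had 0.353 ± 0.213 RPKM and Crabp1 0.0979 ± 0.0668 RPKM. Cyp26a1 (0.0217 RPKM), Cyp26c1 (0.00949 RPKM) and Crabp2 (0.00846 RPKM) lay at the floor of detection. Aldh1a1 exceeded Aldh1a3 20.8-fold, Aldh1a3 exceeded Aldh1a2 3.24-fold and Aldh1a2 exceeded Cyp26b1 6.99-fold, each without overlap between the control ranges. These ratios depend on the length used. The exon length joins all exons of a gene, 4937 bases for Aldh1a1, whose longest coding transcript in GENCODE M21 has 2358 bases. For Aldh1a3 these are 4617 and 3443 bases, for Cyp26b1 5352 and 4495, and for Aldh1a2 both are 2264. Cyp26b1 and Crabp1 overlapped, with Cyp26b1 higher in 4 of 5 control and 5 of 5 RetSat ko libraries. Crabp1 stood above Cyp26a1 without overlap in control. Cyp26a1 lay above Cyp26c1 in 4 of 5 control and 3 of 5 RetSat ko libraries, with overlapping control ranges. The control ranges of Cyp26c1 and Crabp2 overlapped too, and no test between genes was run. Scaled as TPM (to a sum of 1000000 per library over all genes) the control means of Aldh1a1, Aldh1a3 and Aldh1a2 were 427.5, 20.98 and 6.53, in the same order. Of the summed RPKM of the members, Aldh1a1 made up 93.8% in control and 92.8% in RetSat ko.

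**Figure D1:**
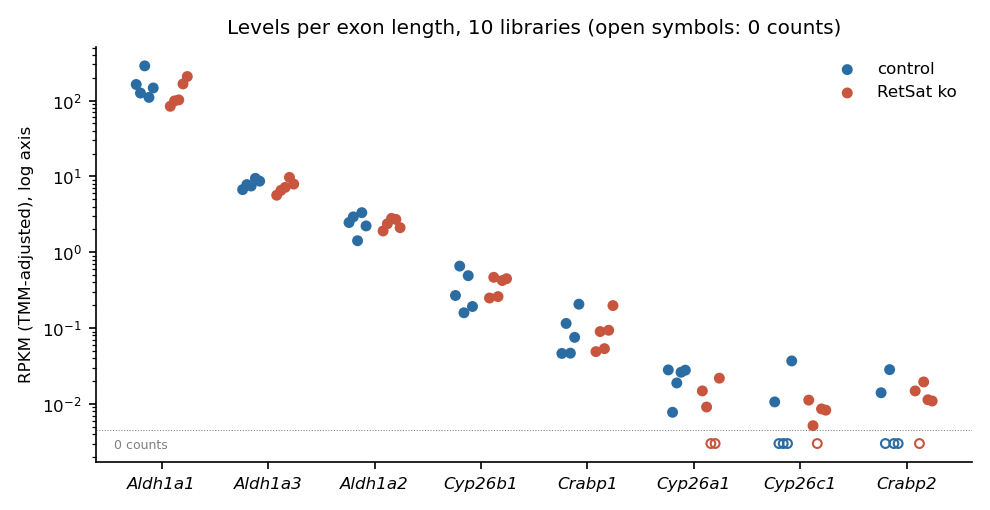
Level per exon length (RPKM, log axis) of the 8 members in each of the 10 libraries, control and RetSat ko, with open symbols for libraries without a count. Aldh1a1 lies above all other members in every library, and 4 members lie near or at the limit of a few counts.

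Aldh1a1, a cytosolic enzyme that oxidises retinaldehyde (ENSMUSG00000053279.9, chromosome 19, 20470079 to 20620829, plus strand, GRCm39), had 803, 619, 1413, 542 and 722 CPM in control 1 to 5 and 414, 488, 503, 817 and 1023 CPM in RetSat ko 1 to 5. Control 3 was the highest library and RetSat ko 1 the lowest, and the groups overlapped widely, with RetSat ko 4 and RetSat ko 5 each above 4 of the 5 control libraries. The control mean was 820 ± 346 CPM and the RetSat ko mean 649 ± 260 CPM (± SD, n = 5 each, two-sided exact permutation p = 0.437). The log2 fold change was -0.34 ± 0.32 (SE) with a 95% interval of -1.04 to 0.37 and an edgeR adjusted p of 0.694 (quasi-likelihood test). Its spread was wide for its level: the biological coefficient of variation was 0.348, against 0.164 on the trend of genes of like abundance. Without control 3, the library low in smooth muscle markers, the log2 fold change was -0.05. The opposite strand genes C730002L08Rik (30 to 100 counts per library) and Gm6684 (0 to 2 counts) overlap the span of its locus. Aldh1a1 itself had 42282 to 151119 counts. Whether their exons overlap was not checked, and the counting does not separate strands.

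Aldh1a2, the enzyme that makes most retinoic acid in the early embryo (ENSMUSG00000013584.6, chromosome 9, 71123071 to 71203525, plus strand), had 5.57, 6.61, 3.21, 7.52 and 5.03 CPM in control 1 to 5. The RetSat ko libraries had 4.31, 5.36, 6.32, 6.12 and 4.77 CPM. Both the lowest and the highest library were controls (3 and 4), and the RetSat ko range lay inside the control range. The log2 fold change was -0.06 ± 0.20 (SE; 95% interval -0.49 to 0.38, edgeR adjusted p = 0.931), and it was 0.04 with library totals in place of TMM factors.

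Aldh1a3 (ENSMUSG00000015134.16, chromosome 7, 66040638 to 66077265, minus strand), the third retinaldehyde dehydrogenase, had 30.9, 35.97, 34.4, 43.5 and 39.9 CPM in control 1 to 5. The RetSat ko libraries had 26.0, 30.2, 33.0, 44.8 and 36.5 CPM. RetSat ko 1 was the lowest and RetSat ko 4 the highest library, so the control range lay inside the RetSat ko range. The log2 fold change was -0.11 ± 0.14 (SE; 95% interval -0.41 to 0.18, edgeR adjusted p = 0.762). Without the 4 libraries highest in acinar transcripts it was 0.17, still short of the threshold (edgeR adjusted p = 0.497).

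**Figure D2:**
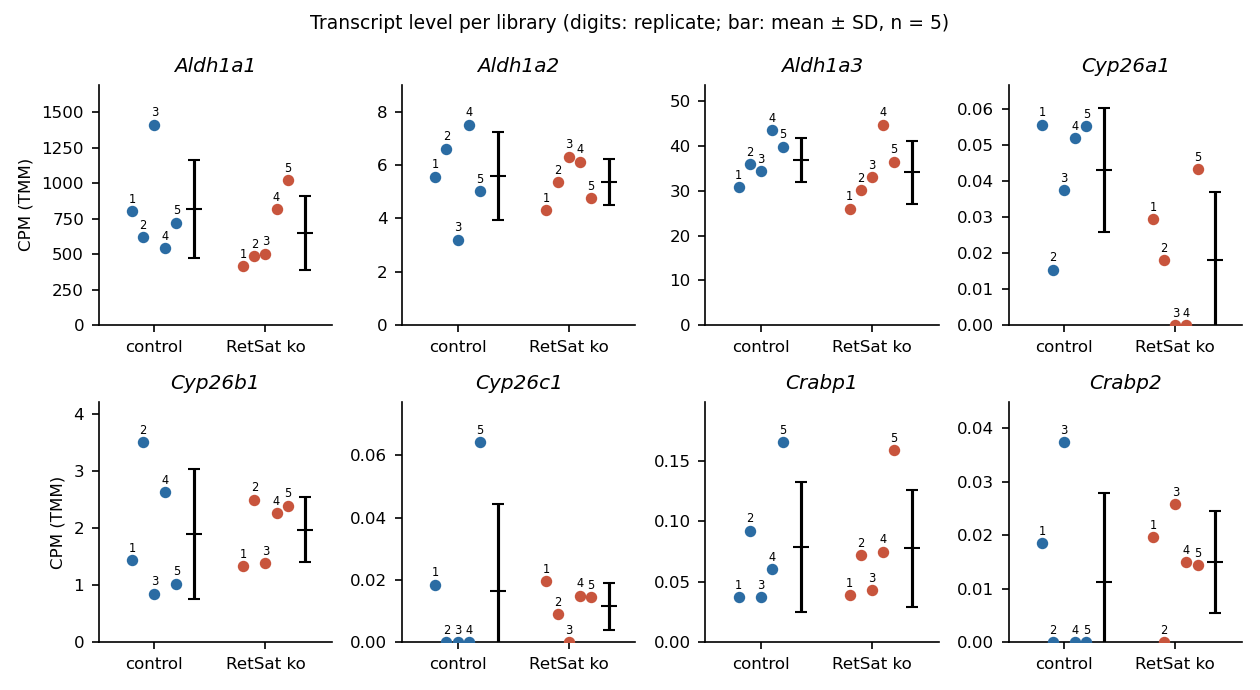
CPM of each member in the 5 control and 5 RetSat ko libraries, with group means and SD (bars that would pass below 0 are drawn from 0). The ranges of the groups overlap for every member, and Cyp26a1 is the member with RetSat ko libraries at 0 and no control library at 0.

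Cyp26b1, a retinoic acid hydroxylase (ENSMUSG00000063415.13, chromosome 6, 84548396 to 84570890, minus strand, 11.96 Mb from Retsat), was the main breakdown transcript. It had 1.44, 3.51, 0.851, 2.62 and 1.03 CPM in control 1 to 5 and 1.33, 2.50, 1.39, 2.26 and 2.40 CPM in RetSat ko 1 to 5, from 91 to 457 counts. Control 2 was highest and control 3 lowest, and every RetSat ko library lay between them. The log2 fold change was 0.06 ± 0.38 (SE; 95% interval -0.77 to 0.90, edgeR adjusted p = 0.962). Cyp26b1 made up 74.8% to 100% of the summed Cyp26 RPKM of a library.

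The hydroxylase genes Cyp26a1 (ENSMUSG00000024987.7, 37686246 to 37689984) and Cyp26c1 (ENSMUSG00000062432.5, 37674029 to 37681846) lie 4.4 kb apart on the plus strand of chromosome 19, and both were close to undetected. Cyp26a1, whose window is printed above, had 6, 2, 4, 6 and 6 counts in control 1 to 5 and 3, 2, 0, 0 and 6 counts in RetSat ko 1 to 5. That is 24 counts in control and 11 in RetSat ko, with overlapping groups. RetSat ko 3 and 4 were at 0, where the floor was set at 3 counts and the exact 95% Poisson interval reaches 3.69 counts. The control mean was 0.0431 ± 0.0172 CPM and the RetSat ko mean 0.0181 ± 0.0188 CPM (± SD, n = 5 each, two-sided exact permutation p = 0.0794). Without control 2 the exact p was 0.0317 and without RetSat ko 5 it was 0.0397, whereas it lay between 0.0794 and 0.143 when any 1 of the other 8 libraries was left out. In the fit without the abundance filter the edgeR adjusted p was 0.632 (log2 fold change -1.20 ± 0.90, SE). A single library with 6 counts has an exact 95% Poisson interval of 2.20 to 13.1 counts, which covers counting error only. Cyp26c1 had 2, 0, 0, 0 and 7 counts in control and 2, 1, 0, 2 and 2 counts in RetSat ko (exact permutation p = 0.897). No difference of Cyp26c1 was detectable at this depth.

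Crabp1 and Crabp2, small carriers of retinoic acid, were likewise too low for the test across genes. Crabp1 (ENSMUSG00000032291.9, chromosome 9, 54672032 to 54680394, plus strand) had 4, 12, 4, 7 and 18 counts in control 1 to 5 and 4, 8, 5, 10 and 22 counts in RetSat ko 1 to 5. Control 5 and RetSat ko 5 were the highest in their groups, and the means of 0.0785 ± 0.0535 and 0.0776 ± 0.0482 CPM were nearly equal (SD, n = 5 each, exact permutation p = 0.976). Crabp2 (ENSMUSG00000004885.6, chromosome 3, 87855973 to 87860683, plus strand) had 2, 0, 4, 0 and 0 counts in control and 2, 0, 3, 2 and 2 counts in RetSat ko (exact permutation p = 0.698). No difference of Crabp2 was detectable with 0 to 4 counts per library.

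Of the 4 members tested, 0 had an edgeR adjusted p under 0.05, which 6 of 18654 genes (0.0322%) had. At an unadjusted p under 0.05 in edgeR the members again gave 0, against 2283 genes (12.2%), and 0 of the 4 had ranges that did not overlap, against 430 genes (2.31%). DESeq2 gave an adjusted p to 3 of the 4 (not to Cyp26b1) and called 0 of them, beside 123 of 11773 genes (1.04%). Without RetSat ko 1 edgeR called 846 of 19001 genes (4.45%), and again 0 members. The fitted change was positive for 1 member and negative for 3, with a median log2 fold change of -0.08 beside 0.02 over all tested genes. A count of 0 among 4 is near each of these shares. The 95% intervals set the limits, and for Aldh1a1 they reach from 0.485-fold to 1.29-fold.

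**Figure D3:**
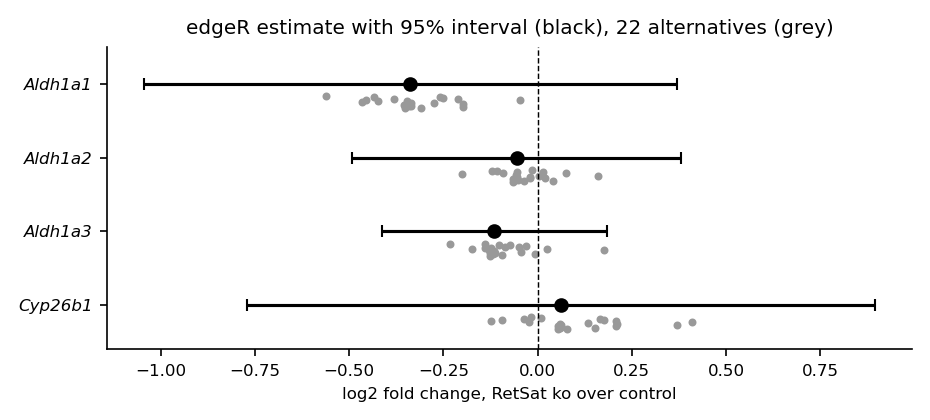
log2 fold change (RetSat ko over control) of the 4 tested members with edgeR's 95% intervals (black) and the values under each of the 22 alternative fits (grey dots). All 4 intervals include 0, and the dots of Aldh1a2, Aldh1a3 and Cyp26b1 lie on both sides of 0.

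Summed over the family, synthesis transcripts had a control mean of 177 ± 68.9 RPKM and a RetSat ko mean of 141 ± 53.8 RPKM (± SD, n = 5 each, two-sided exact permutation p = 0.437). The Cyp26 transcripts had 0.384 ± 0.200 and 0.385 ± 0.109 RPKM (exact permutation p = 1). The log2 ratio of summed Aldh1a to summed Cyp26 counts, which needs no scaling between libraries, was 9.12, 7.55, 10.67, 7.79 and 9.38 in control 1 to 5 and 8.33, 7.70, 8.61, 8.57 and 8.76 in RetSat ko 1 to 5. The control libraries held both the lowest and the highest ratio, and the RetSat ko libraries lay within that range. The means were 8.90 ± 1.27 and 8.39 ± 0.42 (SD, n = 5 each, exact permutation p = 0.460). The difference of -0.51 was -0.07 without control 3 (exact p = 0.913), -0.85 without control 2 (exact p = 0.167) and -0.79 without control 4 (exact p = 0.254).

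The other genes of the retinoid pathway are given from lists drawn up by function. Of 33 tested genes of retinoid uptake, storage and oxidation, Retsat passed edgeR's threshold as lower, and 0 others did. Without the 4 libraries highest in acinar transcripts, which left 3 against 3, the edgeR adjusted p of Retsat was 0.0918 at a log2 fold change of -4.51. In this list 21 genes had negative and 12 positive fitted changes, with a median of -0.11. Retsat included, 8 of the 33 had an unadjusted p under 0.05 in edgeR (12.2% of all genes did) and 3 had ranges that did not overlap (2.31% of all genes). Adh1, an alcohol dehydrogenase that oxidises retinol, had a control mean of 1567 ± 153 CPM and a RetSat ko mean of 1146 ± 176 CPM (± SD, n = 5 each) without overlap of the libraries, a log2 fold change of -0.45 ± 0.12 (SE) and an edgeR adjusted p of 0.291. DESeq2 gave Adh1 an adjusted p of 0.0351, and edgeR without RetSat ko 1 gave 0.0470. Adh4, a related retinol oxidising enzyme, had 111 ± 24.2 and 72.7 ± 15.99 CPM, also without overlap (log2 fold change -0.61 ± 0.18, edgeR adjusted p = 0.291). Rbp7, a cellular retinol binding protein, and Stra6l, a receptor for retinol binding protein, had log2 fold changes of 0.36 ± 0.12 and 0.30 ± 0.11 (edgeR adjusted p = 0.314 and 0.331). The other 3 of the 8 were Rdh12, a retinaldehyde reductase gene, and Rbp4 and Ttr, which encode the carriers of retinol in blood (log2 fold changes 0.50 ± 0.20, 0.60 ± 0.24 and 0.57 ± 0.25, edgeR adjusted p from 0.355 to 0.386). Rbp4 (7.66 CPM) and Ttr (14.8 CPM) were highest in RetSat ko 5, the library with the highest hepatocyte marker sum, and that library's part in their values was not tested. The mean of the enterocyte marker sum was lower and that of the crypt marker sum higher in RetSat ko, as given above, and their part in these values was not tested.

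Among 15 tested receptors and partners, 0 passed in edgeR and 2 had an unadjusted p under 0.05 (12.2% of all genes did). In this list 11 changes were negative and 4 positive, with a median log2 fold change of -0.06. The corepressor gene Nrip1 had -0.26 ± 0.09, the coactivator gene Ncoa2 -0.26 ± 0.11, the orphan receptor gene Nr2f2 0.20 ± 0.10 and the RAR partner Rxra -0.19 ± 0.09 (edgeR adjusted p from 0.321 to 0.429). Ncoa2 passed without RetSat ko 1 (log2 fold change -0.35, edgeR adjusted p = 0.0461). Among 26 genes known to respond to retinoic acid in some tissue, 0 passed in edgeR, with 13 positive and 13 negative changes and a median of 0.01. An unadjusted p under 0.05 in edgeR was reached by 1 of them, Nrip1, which is in both lists (12.2% of all genes did). Rarb, a receptor gene that retinoic acid induces in many cells, had 0.218 CPM in control and 0.307 CPM in RetSat ko (log2 fold change 0.49 ± 0.33, edgeR adjusted p = 0.563). Tgm2, the transglutaminase gene, had 0.27 ± 0.14, Dhrs3, whose enzyme reduces retinaldehyde back to retinol, -0.15 ± 0.08, and the transcription factor gene Foxa1 0.15 ± 0.08.

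The families of the members themselves gave 0 calls in edgeR. Of 17 other aldehyde dehydrogenases 7 were positive and 10 negative (median log2 fold change -0.02). In edgeR 3 of them had an unadjusted p under 0.05, beside 12.2% of all genes. Aldh3a2, which oxidises fatty aldehydes, had a log2 fold change of -0.39 ± 0.15, Aldh3b2 0.65 ± 0.28 and Aldh6a1, of valine breakdown, -0.19 ± 0.09 (edgeR adjusted p from 0.355 to 0.405). Of 10 other intracellular lipid binding proteins 6 were positive and 4 negative (median 0.26), led after Rbp7 by Fabp4 with 0.99 ± 0.48, Fabp5 with 0.23 ± 0.14 and Fabp3 with 0.62 ± 0.39 (edgeR adjusted p from 0.441 to 0.536). Fabp4 is a gene of adipocytes and of capillary endothelium. It is one of the 7 adipocyte markers, of which 6 had a positive and 1 a negative fitted change (median log2 fold change 2.11, 0 called in edgeR). Adiponectin (Adipoq) had 0 to 2.57 CPM in control, 0.0392 and 0.342 CPM in RetSat ko 1 and 2, and 3.59 to 6.58 CPM in RetSat ko 3 to 5, the libraries that also had the 3 highest levels of Fabp4 (22.7 to 33.1 CPM). The sum of the 7 markers (133 to 258 CPM in control, 129.7 to 234 CPM in RetSat ko) is mostly Cidec, the 1 marker with a negative change. The part of fat tissue in these values was not tested.

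Aldh1a7, a rodent paralogue that lies 49.49 kb from Aldh1a1 on chromosome 19 (20670317 to 20704926, minus strand), was the close relative of a member. Its transcript matched that of Aldh1a1 at 88.8% over 2036 bases, so some reads could fit both genes, and levels of both are to that extent uncertain. Aldh1a7 had 115, 91.3, 154, 83.8 and 101 CPM in control 1 to 5 and 84.8, 83.0, 65.8, 99.9 and 113 CPM in RetSat ko 1 to 5 (exact permutation p = 0.214). Control 3 was the highest library for both genes. Over the 10 libraries their log2 CPM had Pearson's r = 0.903 (permutation p = 0.00034, adjusted p = 0.0148 over 87 relations) and Spearman's rho = 0.855 (permutation p = 0.00268, adjusted p = 0.0777). Without control 3 and RetSat ko 3, the libraries farthest from the median of Aldh1a7, r was 0.906. The log2 ratio of Aldh1a1 to Aldh1a7 RPKM averaged 1.601 ± 0.20 (control) and 1.54 ± 0.37 (RetSat ko; ± SD, n = 5 each, exact permutation p = 0.746).

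Among the 6 pairs of the 4 tested members r ranged from -0.526 (Aldh1a1 and Aldh1a2) to 0.692. None had an adjusted p under 0.05, which with 10 libraries cannot show that the members vary apart. The closest pair was Aldh1a2 and Cyp26b1 (r = 0.692, permutation p = 0.0234, adjusted p = 0.185, and rho = 0.697, permutation p = 0.031). Without control 2 and control 3 that r was 0.405, so the relation rests on these libraries. Control 3 had the lowest Aldh1a2 and Cyp26b1, the highest Aldh1a1 and the lowest smooth muscle sum of all 10 libraries.

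Each member was then set beside marker scores, the mean log2 CPM of a list of cell type markers after centring each gene. Of 80 such relations 3 had an adjusted p under 0.05 by Pearson's r. Aldh1a2 varied with the 8 mesothelium markers (r = 0.893, permutation p = 5e-05, adjusted p = 0.00435; rho = 0.927, permutation p = 0.00034, adjusted p = 0.0296), the cells that line the outer surface of the gut. The score fell into 3 libraries at -0.96 or below (control 3, control 5 and RetSat ko 1) and 7 at -0.02 or above. Within these 7 r was 0.895, but the split was placed at the widest gap in the score, for this pair alone, with no test. Without control 3 and RetSat ko 1 r was 0.786. Cyp26b1 varied with the 6 enteric glia markers (r = 0.843, permutation p = 0.00133, adjusted p = 0.0381; rho = 0.903, permutation p = 0.00091, adjusted p = 0.0396), and r was 0.856 without control 3 and RetSat ko 2. Aldh1a3 varied with the 8 macrophage markers (r = 0.860, permutation p = 0.00175, adjusted p = 0.0381), but Spearman's rho of 0.745 had an adjusted p of 0.215 (permutation p = 0.0169). Without control 1 and RetSat ko 1 that r was 0.767. Short of the threshold, Aldh1a2 had r = 0.819 with smooth muscle (permutation adjusted p = 0.092) and -0.575 with absorptive enterocytes (adjusted p = 0.301). Cyp26b1 had r = 0.752 with mesothelium (adjusted p = 0.158) and -0.721 with enterocytes (adjusted p = 0.185). Aldh1a3 had r = 0.754 with blood endothelium (adjusted p = 0.0837). The 3 relations therefore do not single out a cell type.

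**Figure D4:**
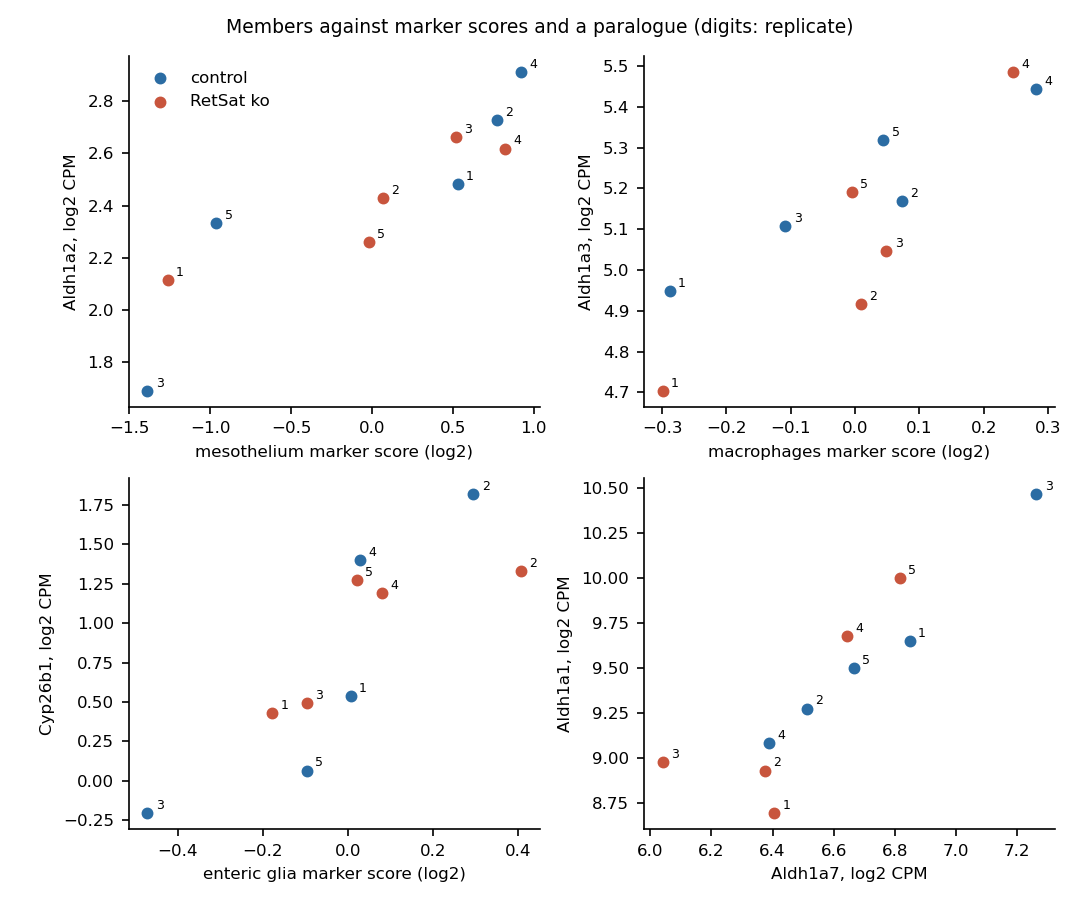
log2 CPM of Aldh1a2, Aldh1a3, Cyp26b1 and Aldh1a1 (vertical axes) against mesothelium, macrophage and enteric glia marker scores and against Aldh1a7 (horizontal axes), 1 point per library with its replicate number. In each panel the control and RetSat ko points overlap on both axes.

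With the group means removed, r was 0.894 for Aldh1a2 and mesothelium, 0.837 for Cyp26b1 and glia, 0.895 for Aldh1a3 and macrophages and 0.894 for Aldh1a1 and Aldh1a7. The scores did not separate the groups: the mesothelium markers had 3 positive and 5 negative fitted changes between genotypes, the glia markers 4 and 2, and the macrophage markers 4 and 4, with 0 called in edgeR. All markers of the 3 lists had counts, though Wt1 was at 0 in RetSat ko 1 and the lowest control value of Krt14 was 0. The mesothelium markers Wt1, Bnc1 and Krt14 were near the floor, with group means from 0.108 to 0.329 CPM. The glia markers Sox10, Gfap and Fabp7 were similarly low, with group means from 0.211 to 0.392 CPM. The summed level was 54.0 to 65.7 CPM in control and 55.0 to 71.7 CPM in RetSat ko for mesothelium, 339 to 481 and 200 to 433 CPM for glia, and 133 to 195 and 128.6 to 192 CPM for macrophages. Krt7 makes up most of the mesothelium sum and Erbb3 most of the glia sum, genes that epithelium can also make, whereas the score weights each marker equally. The part of these cell types in the levels of the members was not tested. Aldh1a1 had no relation with a marker score past the threshold, the strongest being smooth muscle (r = -0.771, adjusted p = 0.092).

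**Figure D5:**
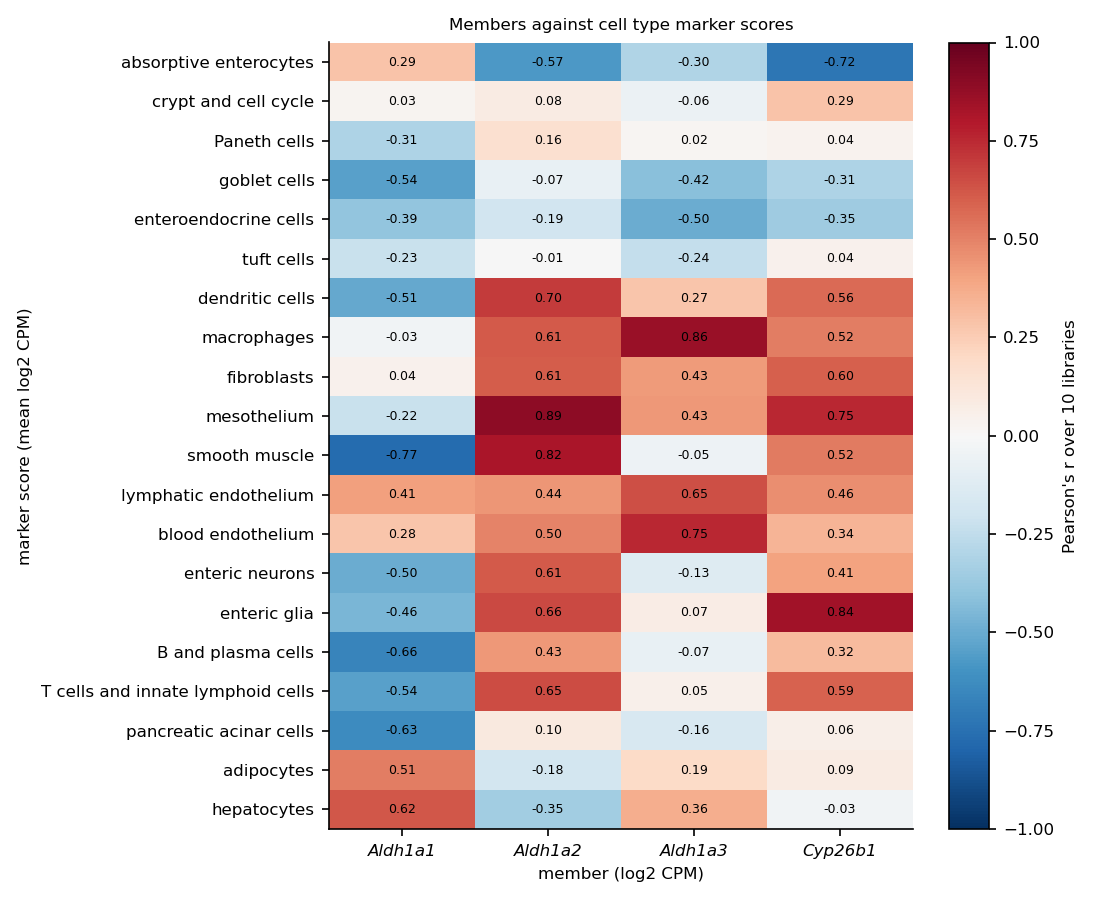
Pearson's r over 10 libraries between log2 CPM of the 4 tested members (columns) and 20 cell type marker scores (rows), from -1 (blue) to 1 (red). Aldh1a2 and Cyp26b1 have mostly positive values with stromal, neural and immune scores, and Aldh1a1 mostly negative ones.

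The genes whose levels followed each member most closely over the 10 libraries, among 12448 genes searched, are given as a description, with no test. Aldh1a1 was followed by Carm1 (r = 0.977), an arginine methyltransferase gene, and by the transporter genes Slc5a4b (0.975) and Slc23a1 (0.974), the latter for ascorbate. Aldh1a2 was followed by Rarres2 (0.966), the gene of the secreted protein chemerin, Tmtc1 (0.951) and the laminin gene Lama2 (0.951). Aldh1a3 was followed by the lymphatic growth regulator Ccbe1 (0.964) and the collagen genes Col6a4 (0.962) and Col18a1 (0.937). Among the genes nearest to Cyp26b1 were Zfp947 (0.916) and the chondroitin synthase gene Chsy1 (0.912). By Spearman's rank measure the same top 3 held 1 of these genes for Aldh1a1, 0 for Aldh1a2, 2 for Aldh1a3 and 0 for Cyp26b1.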

How the data were processed

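RNA sequencing gave raw counts of reads per gene for 5 control and 5 RetSat ko jejunum libraries, as the authors deposited them, grouped by the genotype in the labels. Per the submitters' processing notes, Trimmomatic, STAR and GRCm39 were used. Per the file headers, featureCounts 2.0.1 counted exons by gene in GENCODE M28 and gave a read to the gene it overlapped most, with no option for strand, read pairs or multiple alignments. Reads of antisense genes are therefore not told apart by strand where their exons overlap, and near-identical genes can lose reads.

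Counts were analysed in R 4.3.3 with edgeR 4.0.16 (filterByExpr, TMM factors, robust quasi-likelihood F-test without covariates, Benjamini-Hochberg adjustment over 18654 genes, threshold 0.05), which was tested on simulated data. CPM are counts per 1000000 counts of the TMM-scaled library, and RPKM divides CPM by the exon length in the files. Two-sided exact permutation tests served for single values (5 against 5, smallest possible p 0.00794, unadjusted). Log2 CPM for correlations used a prior count of 2, and 100000 permutations gave their p, adjusted over 87 relations. Poisson intervals are exact at 95%, and both they and the floor of 3 counts cover counting error only. Transcripts were compared with blastn 2.17.0 in GENCODE M21, and promoter windows came from RefSeq.

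Alternatives were RLE and upper-quartile factors, library totals, TPM scaling, 2 other filters, DESeq2 1.42.0, limma 3.58.1 voom (plain or with sample weights), estimates without robustness, a replicate block, leaving out libraries rich in acinar or B cell transcripts and leaving out each library. A ratio from RPKM in place of counts was added after seeing the data, and the split of the mesothelium score was placed by its own values. Named genes were the members, the 4 genes of smallest p in each list, the 3 genes most correlated with each tested member, and close paralogues. A gene that this rule takes is not reported here. Rarb, Rdh12, Rbp4, Ttr and single markers (such as Adipoq, Cidec, Krt7, Erbb3 and Jchain) were named beyond that rule, after their values were seen. The members and lists were chosen with earlier results of these data known.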

Additional observations from a re-analysis of the deposited data

Results flagged for a closer look

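Cyp26c1 in control 5 stood apart from the other control libraries. It had 0.0643 CPM there (7 counts), while the next control library had 0.0185 CPM and the other 3 had 0 counts. The gap to the nearest library was 0.712 of the whole range, against a critical value of 0.71 for 5 samples. It was 1 of 20 groups of values checked, and chance alone flags about 1 in 20. Its exact 95% Poisson interval of 2.81 to 14.4 counts covers counting error only.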

How the results depend on the processing

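The count of called members was 0 under all 22 alternatives, though DESeq2 gave Cyp26b1 no adjusted p. The count of genes called was 6, and it was 123 with DESeq2, 10 with limma-voom and sample weights, and 5 to 846 when 1 library was left out, with 846 for RetSat ko 1. Genes called in the other pathway lists, Retsat aside, numbered 0, with 1 in DESeq2 (Adh1) and 0 to 2 when 1 library was left out. The labels do not say whether libraries of the same replicate number belong together. The deviations of same-numbered libraries had correlations from -0.149 to 0.002, which cannot settle this. With the number as a replicate block 4 genes and 0 members were called. Library totals in place of TMM factors moved the median log2 fold change of all genes to 0.12.

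Aldh1a1 stayed negative throughout (-0.56 to -0.05). The log2 fold change of Aldh1a2 turned positive with library totals (0.040) and sample weights (0.021), and when the 4 libraries richest in acinar (0.16) or the 3 richest in B and plasma cell transcripts (0.0025) were left out, and lay between -0.20 and 0.075 when 1 library was left out. That of Aldh1a3 turned positive without the same acinar (0.17) or B cell libraries (0.025), and that of Cyp26b1 lay between -0.12 and 0.41 when 1 library was left out. The CPM difference of Aldh1a2 was 0.153 and that of Crabp1 0.00516 with library totals. When 1 library was left out, these CPM differences ranged from -0.805 to 0.273 for Aldh1a2, -0.174 to 0.490 for Cyp26b1, -0.00911 to 0.00697 for Cyp26c1 and -0.0212 to 0.0208 for Crabp1. The B and plasma cell libraries (control 4, control 5 and RetSat ko 3) were taken by summed level, nearly all Jchain, and the library with the highest score of that list, RetSat ko 2 (2.90), was kept. Per exon length, TPM scaling raised the control means about equally, from 166 to 427.5 for Aldh1a1. That rise comes from the scaling itself, which multiplies all genes of a library by the same factor. The cause of the other changes was not tested. Depth limits Cyp26a1, Cyp26c1, Crabp1 and Crabp2, which had 0 to 22 counts per library.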
